A study of Homo sapiens with 4 samples.

Results

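Of the 19922 protein-coding genes of GENCODE release 29, 52 encode the histone lysine methyltransferases and demethylases described here, 35 of them on the writing side and 17 on the erasing side. They were chosen by name, and their values are the sites that the authors assigned to these gene identifiers in each of 2 lists. The lists come from RNA immunoprecipitation of PARP1, a nuclear enzyme that builds poly(ADP-ribose) on itself and on other chromatin proteins, followed by sequencing. The series holds 4 samples of HK-2 cells, an established line of immortalised human kidney proximal tubule cells. Of these, 2 are PARP1 immunoprecipitates taken with a Flag antibody, called IP 1 and IP 2, and 2 are inputs, which were not analysed here. There was no control IP, the labels give no genotype or agent beyond the IP, and they do not state whether separate cultures were used, so differences between the IPs may be technical.

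Each listed site is 1 base on 1 strand of GRCh38 at which at least some sequenced tags carried a substitution, a deletion or an insertion. A sense site is a site on the strand of the gene to which the authors assigned it. A shared base is listed on the same strand in both IPs. Sites were counted per 10 kb of annotated gene span, because long genes carry more of them. The amount of each transcript in the cells is not separated from the number of sites on it, since the lists hold no input values.

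Lysines in histone tails are methylated by writers, nearly all with a SET domain, and the methyl groups are removed by erasers of the FAD-dependent and Jumonji families. Methylation of H3K4 marks promoters and enhancers, H3K36 and H3K79 methylation lies over transcribed gene bodies, and H3K9, H3K27 and H4K20 methylation is linked to silent or compacted chromatin. PARP1 is itself a chromatin protein, and in kidney tubule cells it is mostly studied for its part in injury. The writers and erasers described here are mostly long genes, with a median span of 79282.5 bases, against 27151.5 bases for all protein-coding genes.

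The reference sequence around a few exonic bases shows what the lists record. Of the 65 shared bases in these genes, 3 lay within a GENCODE release 29 transcript sequence with 10 bases on each side. They are given first, 5′ to 3′ in the direction of the transcript, with the listed base in capitals.
KDM2B shared base (chr12:121444658-121444678, GRCh38, minus strand): ttttcttttgCctggaaacgg
KMT2B shared base (chr19:35738728-35738748, GRCh38, plus strand): atccagcaatCgccccctttc
SETD1B shared base (chr12:121831611-121831631, GRCh38, plus strand): ttgtacttccAaaaaaaaagg
The bases below were listed in 1 IP only and had among the most mutated tags of all exonic sites of these genes.
SETD1B base of IP 1 (chr12:121810666-121810686, GRCh38, plus strand): caacacccctCccagactccg
KDM2B base of IP 1 (chr12:121442707-121442727, GRCh38, minus strand): gggagagcgaCcactcccgct
KMT5A base of IP 2 (chr12:123408267-123408287, GRCh38, plus strand): tactgagcccCgggccccaag
KMT2D base of IP 2 (chr12:49032185-49032205, GRCh38, minus strand): atacagggccAcaacctccca

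In the shared windows the support was thin and unlike between genes. The KDM2B base, classed as intronic by the authors and present in a retained-intron transcript, had 2 of 2 tags mutated in each IP. The KMT2B base in the 3′ untranslated region (UTR) had 5 of 7 tags mutated in IP 1 and 2 of 2 in IP 2. The SETD1B base in the 3′ UTR opens a run of A, and it was an insertion in IP 1 and a deletion in IP 2, with 2 of 6 tags mutated in each. The coding base of SETD1B had 11 of 11 tags mutated in IP 1 and was not listed in IP 2, and that of KDM2B had 9 of 9 in IP 1 and was likewise not listed in IP 2. The KMT5A base in the 3′ UTR had 7 of 7 tags mutated and the coding base of KMT2D 6 of 7, both in IP 2 only. These were chosen as listed in 1 IP only, so they say nothing of how often strong bases recur.

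The lists held 166248 sites in IP 1 and 229782 in IP 2. Sense sites of protein-coding genes numbered 103909 and 125338, and the enzyme genes held 954 and 1093 of them, or 0.918% and 0.872%. Tags over the sites of the enzyme genes summed to 2729 in IP 1 and 3246 in IP 2, with a median of 2 tags a site and a highest value of 12 and 14. The enzyme genes' sites had exactly 2 tags, both mutated, in 70.0% of cases in IP 1 and 70.2% in IP 2, against 77.2% and 75.6% in other protein-coding genes. PAX8, a kidney lineage transcription factor, had 23 and 21 sense sites, and 6 of 9 renal epithelial markers had a sense site in both IPs. Of 10 proximal tubule markers 3 did, and AQP1, SLC22A6, ANPEP and SLC5A2 had none in either IP. None of 5 distal nephron, 4 podocyte, 4 leukocyte or 4 fibroblast markers had sense sites in both IPs, and among 4 endothelial markers PECAM1, with 2 and 2 sites, and VWF, with 2 and 4, did.

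Most of the enzyme genes were present in both lists. A sense site in both IPs was found for 47 of 52 (90.4%), against 50.8% of all protein-coding genes. Sense sites were found for 47 in IP 1 and 49 in IP 2, against 57.2% and 61.1% of all protein-coding genes. No sense site in either IP was found for 3 of 52 (5.77%), against 32.5% of all genes. The enzyme genes are longer than most, so each gene was also ranked by density among protein-coding genes of like span, in 10 bins. The median enzyme gene stood at percentile 81.4 in IP 1 and 73.1 in IP 2, where the median over all genes was 45.1 and 45.0. The enzyme genes below percentile 50 in both IPs were KDM4C, PRDM16, KDM7A, EZH1, SMYD1, PRDM9, EHMT2 and KDM8.

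The median density over the enzyme genes was 1.80 sense sites per 10 kb as the mean of the IPs, against 0.474 for all protein-coding genes. By IP the enzyme genes had medians of 1.66 and 1.77, against 0.271 and 0.414. Summed over all bases, the density was 1.62 in IP 1 and 1.86 in IP 2 for the enzyme genes, against 0.766 and 0.924 for all protein-coding genes. The erasers had a median density of 2.07 and the writers 1.65, with ranges from 0 to 4.60 and from 0 to 4.06 that overlap nearly throughout. Among the writers, the medians of groups with more than 2 genes ran from 1.36 for the H3K9 enzymes to 2.55 for the other SET and MYND proteins.

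**Figure D1:**
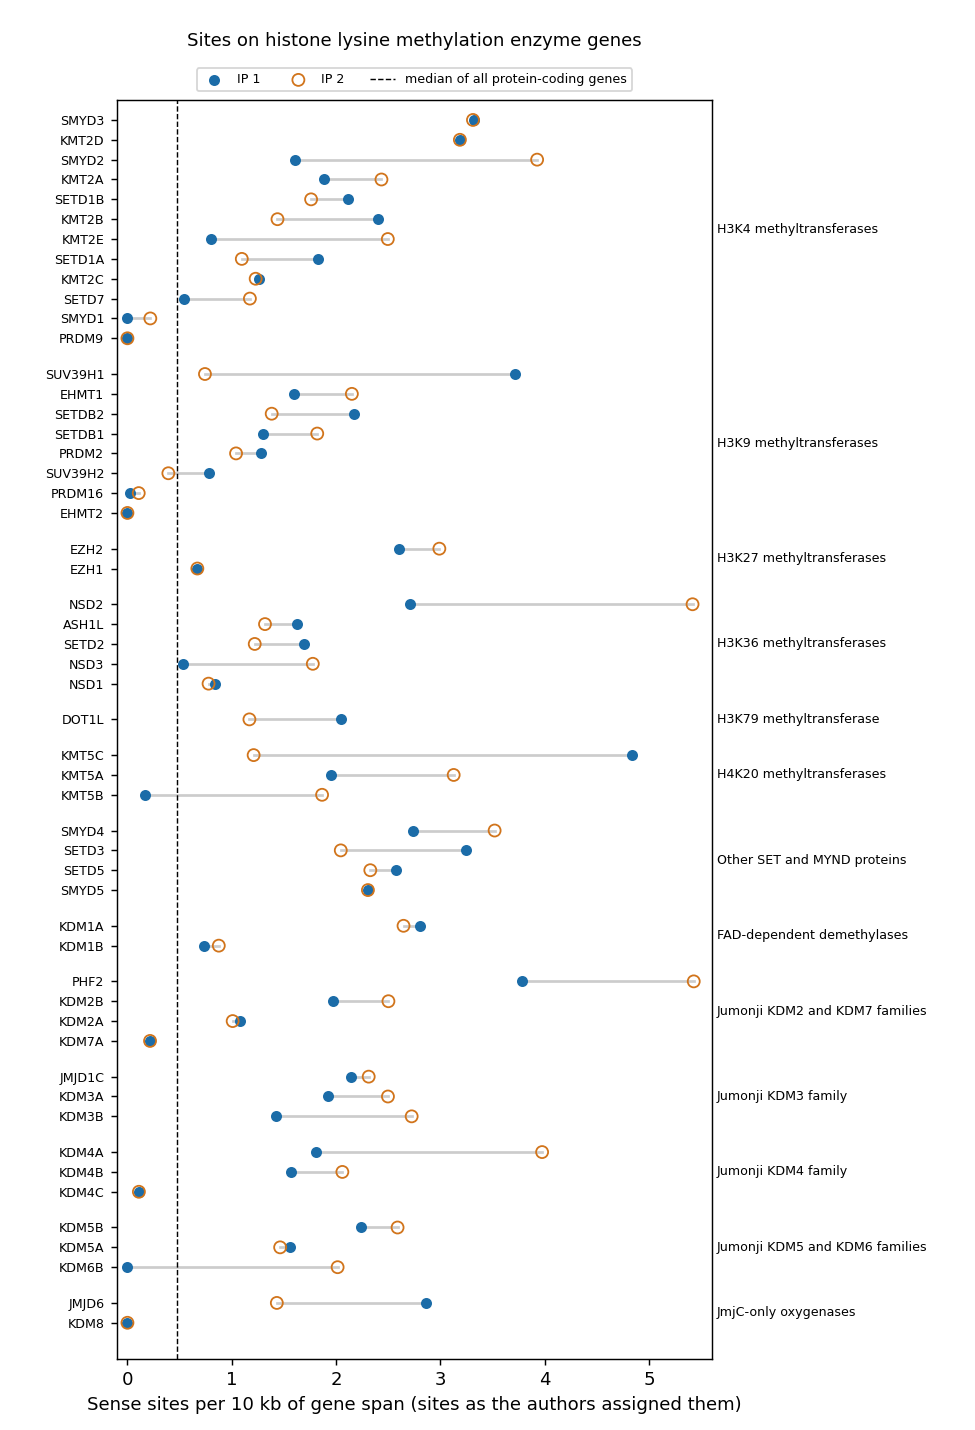
Sense sites per 10 kb of gene span for each of the 52 enzyme genes, grouped by the residue or family, with filled points for IP 1 and open points for IP 2; the dashed line is the median of all protein-coding genes, 0.474. Most genes lie right of the line in both IPs, PHF2 and NSD2 reach 5.43 and 5.42 in IP 2, and PRDM9, EHMT2 and KDM8 are at 0.

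The H3K4 writers held the largest number of sites of any group, 359 in IP 1 and 395 in IP 2, most of them in a single gene. SMYD3 (chromosome 1, 245749342 to 246507312, minus strand), whose product methylates histone tails and the kinase MAP3K2, held 252 sites in IP 1 and 251 in IP 2. These were 26.4% and 23.0% of all sense sites of the enzyme genes. The gene spans 757971 bases, the longest of the 52, and its density of 3.32 and 3.31 per 10 kb put it at percentiles 99.2 and 97.8 for its span. All of its 503 sense sites were intronic, and exons make up 0.303% of its span. The sites listed as antisense to it were fewer, 22 in IP 1 and 57 in IP 2. SMYD2 (chromosome 1, 214281102 to 214337131, plus strand), a methyltransferase of p53 and histones, had 9 and 22 sense sites (1.61 and 3.93 per 10 kb; percentiles 77.5 and 96.7), none in exons. SMYD1, an enzyme of heart and skeletal muscle (chromosome 2, 88067780 to 88113387, plus strand), had 0 in IP 1 and 1 in IP 2, an exonic site with 2 tags.

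The MLL-type enzymes, which methylate H3K4 within large complexes, had intermediate to high densities. KMT2D (chromosome 12, 49018975 to 49059774, minus strand), which monomethylates H3K4 at enhancers, had 13 sense sites in each IP, 3.19 per 10 kb, at percentiles 94.7 and 92.5. Exons make up 47.6% of its span and held 8 of its sites in IP 1 and 7 in IP 2. Its closest relative KMT2C had 38 and 37 sites over a longer span, 1.26 and 1.23 per 10 kb, so the mean density of KMT2D was 2.56 times that of KMT2C with no overlap between their IP values. KMT2A (chromosome 11, 118436464 to 118526832, plus strand), the founding member of the family, had 17 and 22 sites (1.88 and 2.43 per 10 kb; percentiles 86.9 and 89.8), of which 6 and 7 were in exons. Another annotated gene on the same strand covers 51.2% of the KMT2A span. KMT2B (chromosome 19, 35718019 to 35738878, plus strand) had 5 and 3 sites, 2 of them exonic in each IP. SETD1B (chromosome 12, 121804180 to 121832584, plus strand), a catalytic subunit of the SET1 complexes, had 6 and 5, with 4 and 2 in exons, and SETD1A had 5 and 3. KMT2B stood at 2.40 and 1.44 per 10 kb (percentiles 86.1 and 69.8) and SETD1B at 2.11 and 1.76 (percentiles 82.8 and 70.4). KMT2E, which has no established methyltransferase activity, had 8 and 25, and SETD7, which also methylates many non-histone proteins, had 6 and 13. PRDM9, the meiotic enzyme that sets recombination hotspots (chromosome 5, 23443586 to 23528597, plus strand), had none assigned to it, and its span held 1 unassigned site on its strand in IP 2.

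Among the H3K9 writers, EHMT1 carried many sites and its partner EHMT2, which lies in a long stretch nearly without listed sites, none. EHMT1 (GLP; chromosome 9, 137618963 to 137870016, plus strand) carried 40 sites in IP 1 and 54 in IP 2, 1.59 and 2.15 per 10 kb, at percentiles 86.1 and 90.4, with 1 and 0 in exons. EHMT2 (G9a), with which it forms the dimer that dimethylates H3K9, lies on chromosome 6 (31879759 to 31897687, minus strand). It stands in a run of 116 neighbouring protein-coding genes, from ZNRD1 to HLA-DRB5 over 2471 kb, to none of which a site was assigned in either IP. Whether that run reflects EHMT2 itself was not tested. The pericentric H3K9 trimethylases SUV39H1 and SUV39H2 had few, SUV39H1 with 5 in IP 1 and 1 in IP 2 and SUV39H2 with 2 and 1. SETDB1, which silences retroelements, had 5 and 7, SETDB2 11 and 7, and the zinc finger protein PRDM2 16 and 13. PRDM16, a brown fat and stem cell regulator spanning 369454 bases, had 1 and 4, at percentiles 13.2 and 17.9.

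EZH2 and EZH1, the alternative catalytic subunits of Polycomb repressive complex 2, differed in density. EZH2 (chromosome 7, 148807383 to 148884321, minus strand) carried 20 sites in IP 1 and 23 in IP 2, 2.60 and 2.99 per 10 kb, at percentiles 92.4 and 92.4, with 2 and 1 in exons. EZH1 had 3 in each IP, 0.670 per 10 kb. The mean density of EZH2 was 4.17 times that of EZH1, which stood at percentiles 49.5 and 43.7.

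The H3K36 writers included NSD2, which ranked second among the 52 by the mean of the IPs through its value in IP 2, while 9 of the 52 stood above it in IP 1. The gene (chromosome 4, 1871424 to 1982207, plus strand), whose product dimethylates H3K36, carried 30 sites in IP 1 and 60 in IP 2, 2.71 and 5.42 per 10 kb, at percentiles 95.7 and 99.9. Of these 2 in each IP were in exons. Its sites were 10 substitutions, 13 deletions and 7 insertions in IP 1 and 25, 32 and 3 in IP 2. When sites closer than 50 bases were merged, 24 and 44 places remained. The related NSD1 had 14 and 13 sites and NSD3 had 6 and 20, and the mean density of NSD2 was 5.03 and 3.52 times theirs. SETD2, which trimethylates H3K36 behind RNA polymerase II, had 25 and 18, and ASH1L had 37 and 30. DOT1L, the H3K79 enzyme without a SET domain, had 14 and 8.

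The H4K20 writers are short or thinly covered genes whose values varied between the IPs. KMT5C (chromosome 19, 55339853 to 55348120, plus strand), a di- and trimethylase, is the shortest of the 52 at 8268 bases. It had 4 intronic sites in IP 1 and 1 in IP 2, which gives 4.84 and 1.21 per 10 kb and percentiles 96.3 and 71.7. KMT5B, its relative, had 1 and 11 sites. KMT5A, the monomethylase needed for mitosis, had 5 and 8. Of the other SET and MYND proteins, SMYD4 (chromosome 17, 1779485 to 1830634, minus strand) had 14 and 18 sense sites (2.74 and 3.52 per 10 kb; percentiles 92.2 and 94.8), with 3 and 5 in exons. SETD3, which methylates a histidine of actin (chromosome 14, 99397746 to 99480889, minus strand), had 27 and 17, or 3.25 and 2.04 per 10 kb, at percentiles 96.4 and 81.9, with 1 in an exon in each IP. SETD5 had 21 and 19, and SMYD5 had 3 and 3.

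The eraser KDM1A (chromosome 1, 23019443 to 23083689, plus strand), the FAD-dependent demethylase LSD1, carried 18 sites in IP 1 and 17 in IP 2. Its density was 2.80 and 2.65 per 10 kb, at percentiles 93.8 and 89.7, and all of its sites were intronic. Genes on the opposite strand cover 98.9% of its span, and no site was listed as antisense to it. Sites on that strand may be listed under those genes, so this is not a count of opposite-strand sites. KDM1B, its paralogue, had 5 and 6 sites, and the mean density of KDM1A was 3.39 times as high.

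PHF2, a Jumonji demethylase of H3K9 with a PHD finger, had the highest density of all 52 genes by the mean of the IPs, although KMT5C stood higher in IP 1. The gene (chromosome 9, 93576407 to 93679587, plus strand) carried 39 sites in IP 1 and 56 in IP 2, 3.78 and 5.43 per 10 kb, at percentiles 99.1 and 100.0, with 2 exonic sites in each IP. The sites were not spread evenly along it. With the span cut into 10 equal parts from the gene start, parts 2, 3 and 4 held 6, 10 and 9 of the 39 sites in IP 1 and 8, 10 and 11 of the 56 in IP 2. Part 10 held 3 and 9, and those of IP 2 included a run of adjacent deleted bases from 94.876 to 94.881 kb from the gene start. In both IPs, 6 of the sites in part 4 were adjacent bases of 1 deletion. KDM7A, in the same family, had 2 sites in each IP, 0.217 per 10 kb. Of the H3K36 demethylases that bind CpG islands, KDM2B had 30 sites in IP 1 and 38 in IP 2, and KDM2A had 15 and 14.

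With the same division, part 6 of NSD2 held 2 sites in IP 1 and 14 in IP 2, and part 1 held 2 and 10. SMYD3 had 42 and 38 sites in part 9, the highest count in both IPs, and 13 and 31 in part 4. How far the IPs agree along each gene was not tested.

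**Figure D2:**
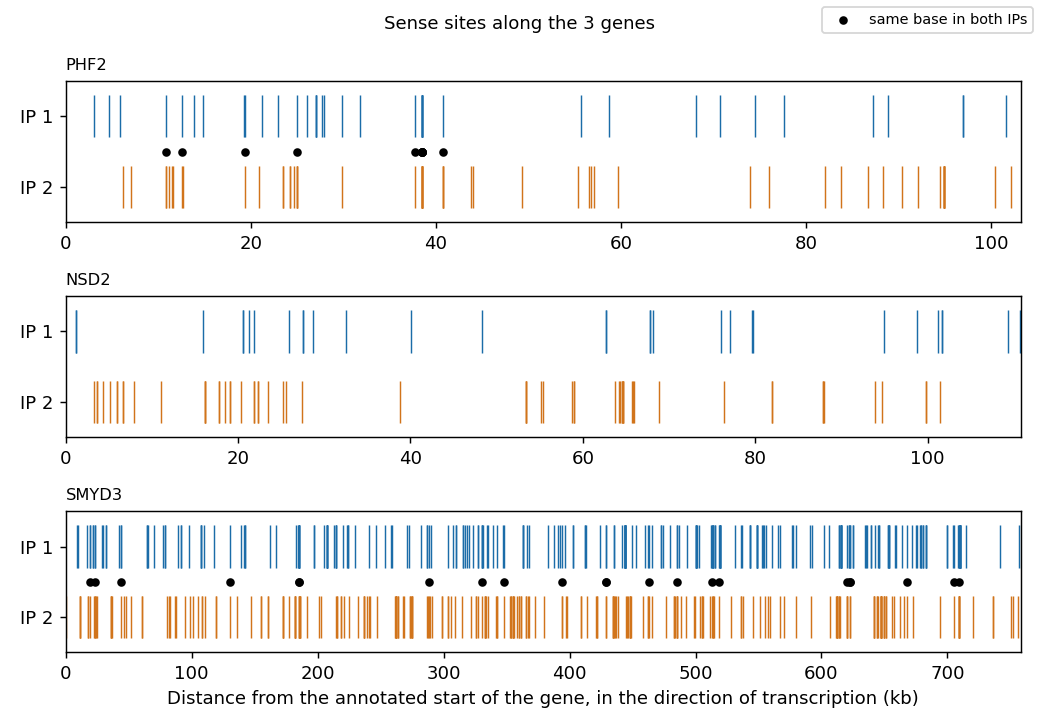
Sense sites (ticks) along PHF2, NSD2 and SMYD3 by distance in kb from the annotated start, in IP 1 above and IP 2 below, with dots at bases listed in both IPs. PHF2 has 12 shared bases, all within its first 50 kb, SMYD3 has 22 spread along the gene, and NSD2 has 0.

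The remaining Jumonji genes covered a wide range. JMJD1C (chromosome 10, 63167221 to 63521850, minus strand), a KDM3-family protein, carried 76 sites in IP 1 and 82 in IP 2, 2.14 and 2.31 per 10 kb, at percentiles 94.1 and 92.2, with 9 and 8 in exons. Of the H3K9 demethylases, KDM3A had 10 and 13, and KDM3B had 12 and 23. KDM4A (chromosome 1, 43650158 to 43705515, plus strand), which acts on trimethylated H3K9 and H3K36, had 10 and 22 (1.81 and 3.97 per 10 kb; percentiles 80.7 and 96.8), with 0 and 1 in exons. Another annotated gene on the same strand covers all of KDM4A. KDM4B (chromosome 19, 4969113 to 5153595, plus strand) had 29 and 38 (1.57 and 2.06 per 10 kb; percentiles 85.9 and 88.9), with 0 and 1 in exons.

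KDM4C showed how the assignment to genes bears on these counts. It had 5 sites in each IP by the authors' assignment, 0.110 per 10 kb, at percentiles 29.9 and 18.1. Its annotated span held 32 sites on its strand in IP 1 and 31 in IP 2, or 0.704 and 0.682 per 10 kb, and 27 and 26 of them carry another gene identifier, which is not in GENCODE release 29. By all sites on the strand it stood at percentiles 58.4 and 50.8. By either count the values of KDM4C were below those of KDM4A, at 1.81 and 3.97 per 10 kb. JMJD1C likewise had 94 and 98 sites on its strand within its span, of which 17 and 16 were listed as intergenic.

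Of the H3K4 demethylases, KDM5A (chromosome 12, 280129 to 389454, minus strand) had 17 sites in IP 1 and 16 in IP 2, and KDM5B had 19 and 22. KDM5A stood at 1.55 and 1.46 per 10 kb, at percentiles 80.3 and 71.2, with 1 and 3 sites in exons. KDM6B, an H3K27 demethylase induced in inflammation (chromosome 17, 7839904 to 7854796, plus strand), had 0 in IP 1 and 3 in IP 2, all intronic. Its span is 14893 bases, so 3 sites amount to 2.01 per 10 kb. JMJD6, a hydroxylase with a debated demethylase activity, had 4 and 2, and KDM8, another hydroxylase of this fold (chromosome 16, 27203495 to 27221768, plus strand), had none in either IP.

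At or above percentile 90 for span in both IPs stood 7 of 52 genes (13.5%), against 4.85% of all protein-coding genes. They were PHF2, NSD2, SMYD3, KMT2D, SMYD4, EZH2 and JMJD1C. Among the related lists described below, 8 of 50 partner subunits and readers (16%) and 3 of 33 chromatin remodellers (9.09%) met the same bound. It was met by 2 of 28 histone acetylation enzymes (7.14%), 0 of 24 further relatives and 0 of 9 arginine methyltransferases. JMJD1C at 94.1 and 92.2, SMYD4 at 92.2 and 94.8, EZH2 at 92.4 and 92.4 and KMT2D at 94.7 and 92.5 stood just inside that bound, and KDM1A at 93.8 and 89.7 just outside it.

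**Figure D3:**
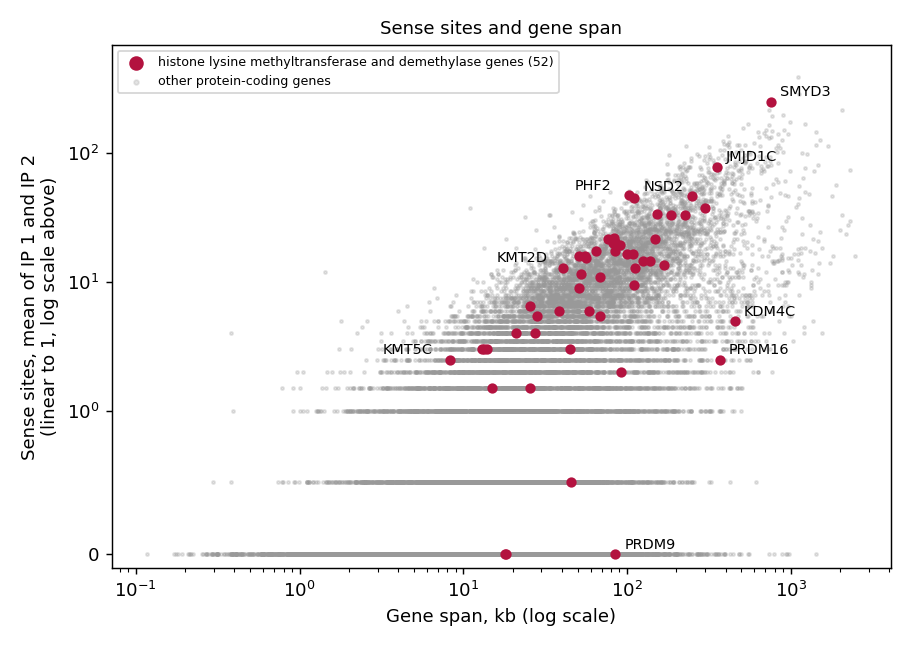
Mean number of sense sites of IP 1 and IP 2 against gene span in kb (log scales; linear below 1) for the 52 enzyme genes (large points) and all other protein-coding genes (small points). SMYD3, with 252 and 251 sites over 757971 bases, lies at the upper edge of the cloud, as do PHF2 and NSD2, and KDM4C and PRDM16 lie low for their span by assigned sites, KDM4C at percentiles 29.9 and 18.1 and PRDM16 at 13.2 and 17.9.

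The IPs were then compared for each gene, after scaling to the ratio of all sense sites of protein-coding genes (0.829 for IP 1 over IP 2). Of 29 enzyme genes with at least 20 sites in total, 4 (13.8%) differed by more than 2-fold, against 12.7% of all protein-coding genes with as many sites. DOT1L was 2.11-fold higher in IP 1. KMT2E, SMYD2 and NSD3 were lower in IP 1, at 0.386, 0.493 and 0.362 times IP 2. In 1 direction the shares over all genes were 6.16% higher and 6.58% lower. The share of enzyme genes with such a difference was near that of all genes. NSD2 stood at 0.603 and SMYD3 at 1.21.

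The next comparison asked how far the IPs listed the same bases. A shared base was found in 22 of 52 enzyme genes (42.3%), against 14.1% of all protein-coding genes, a count not matched for span. Among the related lists described below it was found in 4 of 9 arginine methyltransferases (44.4%) and 13 of 33 chromatin remodellers (39.4%). The share was 25% for 28 histone acetylation enzymes, 22% for 50 partner subunits and readers and 20.8% for 24 further relatives. Of the sites of the enzyme genes in IP 1, 6.81% (exact 95% interval 5.30 to 8.60) recurred in IP 2, against 4.94% (4.81 to 5.08) in other protein-coding genes. Of those in IP 2, 5.95% (4.62 to 7.52) recurred in IP 1, against 4.10% (3.99 to 4.21). Without SMYD3 the shares for the enzyme genes were 6.13% (4.47 to 8.16) and 5.11% (3.72 to 6.82), intervals that include the shares of the other genes.

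The 65 shared bases were unevenly divided. SMYD3 had 22, which were 8.73% of its sites in IP 1 and 8.76% in IP 2. PHF2 had 12, or 30.8% (17.0 to 47.6) and 21.4% (11.6 to 34.4). These intervals take the adjacent bases of 1 deletion, described below, as independent. Together SMYD3 and PHF2 held 34 of the 65 (52.3%). JMJD1C had 4, EHMT1, KDM4B and KMT2A had 3 each, and KDM5A and SETD3 had 2 each. A single shared base was found in 14 genes, namely KMT2B, KMT2D, SETD1B, SMYD2, SETD7, SETDB2, ASH1L, KMT5A, SMYD4, KDM2A, KDM2B, KDM3A, KDM3B and KDM4C. NSD2 had none among its 30 sites in IP 1 and 60 in IP 2, which allows a recurring share of up to 11.6% and 5.96% (upper ends of the exact 95% intervals).

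**Figure D4:**
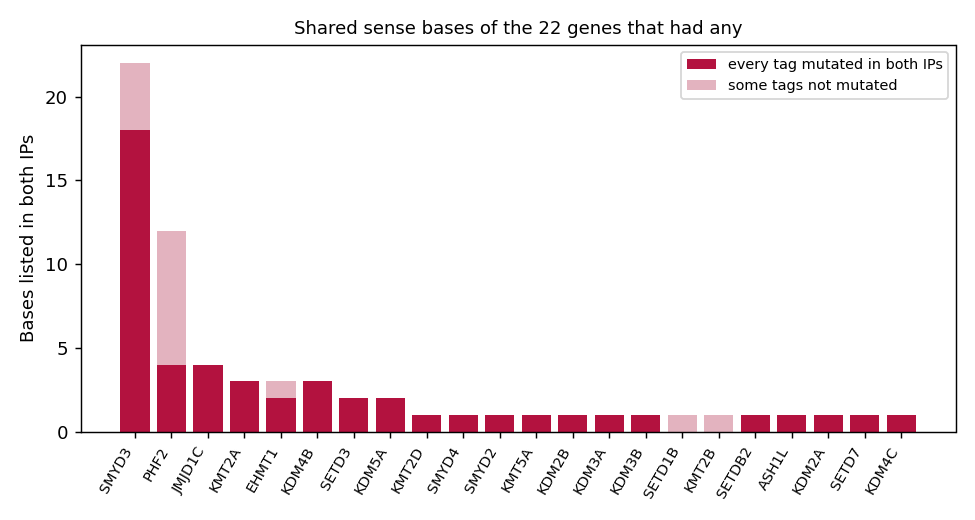
Number of bases listed on the same strand in both IPs for the 22 enzyme genes with any, split by whether every tag was mutated in both IPs. SMYD3 with 22 and PHF2 with 12 hold 34 of the 65 bases, and 14 genes have 1 each.

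The shared bases were not all separate events. When bases closer than 50 bases were joined, 56 places remained, of which SMYD3 had 20 and PHF2 had 7. In PHF2, 6 of the 12 were adjacent bases of 1 deletion in an intron, from 93614874 to 93614879 on chromosome 9, with 3 of 5 tags mutated in IP 1 and 2 of 2 in IP 2. The best supported shared base of PHF2 (93587256) had 3 of 3 tags mutated in IP 1 and 6 of 8 in IP 2. In SMYD3, the base at 246078104 on chromosome 1 had 5 of 7 tags mutated in IP 1 and 5 of 5 in IP 2, and those at 245802249 and 246484202 had 4 of 4 in both. The SMYD3 base with the most tags, at 246176802, had 6 of 10 mutated in IP 1 and 3 of 10 in IP 2. In EHMT1, the base at 137721226 on chromosome 9 had 4 of 5 and 6 of 6 mutated.

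Most of the other shared bases had the minimum of 2 mutated tags in at least 1 IP. JMJD1C at 63290343 on chromosome 10 had 4 of 4 tags mutated in IP 1 and 2 of 2 in IP 2, as had KMT2D at 49049030 on chromosome 12. KMT5A at 123407318 on the same chromosome had 2 of 2 and 4 of 4. KMT2A at 118492703 on chromosome 11, SETD3 at 99446944 on chromosome 14, KDM4B at 4972380 on chromosome 19 and KDM2A at 67238929 on chromosome 11 had 3 of 3 in IP 1 and 2 of 2 in IP 2. Both shared bases of KDM5A, at 357255 and 361596 on chromosome 12, had 2 of 2 in each IP. So had the single shared bases of SMYD4, SMYD2, SETD7, SETDB2, ASH1L, KDM2B, KDM3A, KDM3B and KDM4C. At least 3 mutated tags in both IPs were found at 7 of the 65 bases (10.8%), against 11.2% in other protein-coding genes.

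Of the 65 shared bases, 63 lay in introns and 2 in exons (3.08%, exact interval 0.375 to 10.7), against 12.1% (11.2 to 13.0) in exons for the shared bases of other protein-coding genes. Of the 65, 22 lay in SMYD3, which has no exonic site, and 6 in 1 deletion of PHF2, so this share rests on few genes. The exonic bases were those of KMT2B and SETD1B shown above. Every tag was mutated in both IPs at 50 of the 65 (76.9%), against 83.6%, and 54 were substitutions in both IPs (83.1%), against 82.5%. The mutation type was the same at 64, the exception being SETD1B. Substitutions of the enzyme genes recurred at 9.17% in IP 1 and 8.13% in IP 2, against 6.02% and 5.04% in other genes. Without SMYD3 they recurred at 7.62% (exact interval 5.30 to 10.5) and 6.72% (4.67 to 9.31), intervals that include the shares of the other genes. Their deletions and insertions recurred at 3.01% and 2.56%, against 2.65% and 2.17%. The lists do not separate a substitution that the line's own DNA carries from one made in the RNA or during library preparation.

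The region of the sites was compared next. Exons held 9.12% (exact interval 7.37 to 11.1) of the enzyme genes' sites in IP 1 and 7.87% (6.34 to 9.63) in IP 2, against 9.36% (9.18 to 9.54) and 8.78% (8.63 to 8.94) in other protein-coding genes, and these intervals overlap. SMYD3, with no exonic site, weighs on these shares, which were 12.4% (10.05 to 15.1) and 10.2% (8.25 to 12.5) without it. No exonic site in either IP was found for 15 enzyme genes, a count not set beside all genes. A site in an exon in both IPs was found for 22 of 52 enzyme genes (42.3%), against 14.6% of all protein-coding genes. This count is not matched for span either. It was 18 of 33 for chromatin remodellers (54.5%) and 20 of 50 for partner subunits and readers (40%). For histone acetylation enzymes, further relatives and arginine methyltransferases the shares were 32.1%, 20.8% and 11.1%. KMT2D had the highest counts after JMJD1C, with 8 and 7.

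Per length, exons of the enzyme genes held 2.24 sites per 10 kb in IP 1 and 2.21 in IP 2, and their introns 1.58 and 1.83. In other protein-coding genes exons held 1.23 and 1.39 and introns 0.734 and 0.891. The enzyme genes thus had more sites per length in both kinds of sequence. The ratio of exon to intron density was 1.42 and 1.21 in the enzyme genes, against 1.67 and 1.56 in others. Without SMYD3 that ratio was 1.73 and 1.39. Coding sequence of the enzyme genes held 2.19 and 2.41 sites per 10 kb, against 1.12 and 1.22 in other genes. The rest of their exons held 2.31 and 1.94, against 1.32 and 1.53.

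**Figure D5:**
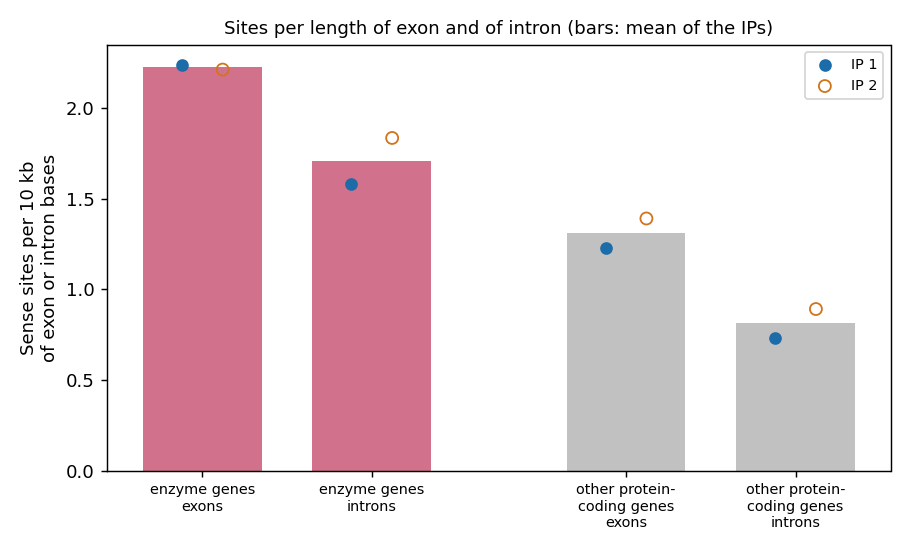
Sense sites per 10 kb of exon and of intron bases in the 52 enzyme genes and in other protein-coding genes, with bars for the mean and points for IP 1 (filled) and IP 2 (open). Exons of the enzyme genes stand at 2.24 and 2.21 and their introns at 1.58 and 1.83, above the exons (1.23 and 1.39) and introns (0.734 and 0.891) of other genes.

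The most deeply covered sites lay mostly in coding sequence. Sites with at least 10 tags numbered 17 in IP 1 and 31 in IP 2. Coding sequence held 13 of the 17 (76.5%, exact interval 50.1 to 93.2) and 17 of the 31 (54.8%, 36.03 to 72.7), against 25.1% and 21.6% in other protein-coding genes. Most were deletions with 2 mutated tags, so the depth came with few mutated tags. Adjacent bases of 1 deletion count separately here. JMJD1C had 6 such coding bases with 11 tags each in IP 1. KMT2A had coding deletions with 12 tags in IP 1 and with 14, 14 and 13 in IP 2. KMT2C, SETD5, KMT2E and ASH1L reached 14, 14, 13 and 13 tags in coding sequence in IP 2, and KDM3A 12.

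The sites with the most mutated tags were substitutions. In IP 1 these were the coding bases of SETD1B and KDM2B shown above, followed by intronic bases of SMYD3 with 6 of 10, 6 of 8 and 6 of 6. NSD1 had a coding base with 5 of 5 in IP 1, and SUV39H2 an intronic deletion with 5 of 7. In IP 2 they were an intronic base of EZH2 and a pair of bases of SMYD3, 6 bases apart, with 8 of 8 tags each. PHF2 had 7 of 9 and SETD5 a coding base with 5 of 5, both in IP 2. Strong bases that were also listed in the other IP included SMYD3 at 246176802 and, with 5 of 7 tags in IP 1, SMYD3 at 246078104 and KMT2B. In IP 2 they included SMYD3 at 246043913 with 7 of 7, EHMT1 at 137721226 with 6 of 6 and PHF2 at 93587256 with 6 of 8.

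By type, deletions and insertions made up 38.3% (exact interval 35.2 to 41.4) of the enzyme genes' sites in IP 1 and 39.2% (36.3 to 42.2) in IP 2, against 32.1% (31.8 to 32.4) and 32.8% (32.5 to 33.1) in other protein-coding genes. Runs of adjacent bases bear on this, because a deletion of several bases is listed base by base. With sites closer than 50 bases merged, the shares were 31.3% and 33.3%, against 26.9% and 27.3%. With at least 3 mutated tags required they were 17.9% in IP 1 and 8.51% in IP 2, against 15.7% and 16.3%, so the enzyme genes stood higher in IP 1 and lower in IP 2. For 19.6% and 21.3% of the enzyme genes' sites the next sense site of the gene by position lay fewer than 50 bases away, against 15.9% and 16.2%. A site with a close neighbour only on its other side is not counted in these shares. Along the genes, the first of 4 equal parts of the span held 21.0% (18.4 to 23.7) and 24.2% (21.7 to 26.9), against 25.2% and 25.3%. On the opposite strand, sites antisense to the enzyme genes were 6.74% of the sites assigned to them in IP 1 and 10.3% in IP 2, against 11.2% and 15.3%.

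Partners of these enzymes and other chromatin regulators were counted in the same way. Of 50 partner subunits and readers 40 had a sense site in both IPs, with a median of 1.36 sites per 10 kb as the mean of the IPs. GSE1 and RCOR1, which are found with KDM1A, had 6 and 4 shared bases, and JARID2, a subunit of Polycomb repressive complex 2, had 5, while PHF1, RCOR2, PAGR1, WIZ and EZHIP had no site in either IP. Of 24 further lysine methyltransferases, demethylases and relatives 14 had a site in both, with a median of 0.390. Their median span was 29523.5 bases. Their median percentiles for span, 45.1 and 45.0, were those of KDM4E and RIOX1, short genes with no site. The median over all genes falls on the same tied values, so the equality does not show a typical density for span. PRDM15 had 3 shared bases and KDM5C and PRDM11 had 2 each, and SETMAR, PRDM8, PRDM13, HR, PRDM12, KDM4E and RIOX1 had no site. Of 33 chromatin remodellers 27 had a site in both, with a median of 1.59. ARID1B had 8 shared bases and CHD6 had 4, and SMARCC2, SMARCB1 and SMARCA1 had no site. Of 28 histone acetylation enzymes 23 had a site in both, with a median of 1.34. HDAC4 had 4 shared bases and HDAC7 had 2, and KAT6B and KAT2A had no site. Of 9 arginine methyltransferases 7 had a site in both, with a median of 0.780, and PRMT6 and PRMT1 had none. The enzyme genes had a site in both IPs for 47 of 52, with a median of 1.80 as the mean of the IPs. In IP 2 alone their median of 1.77 was below that of the acetylation enzymes, 1.84. Their median percentile for span in IP 2, 73.1, was below those of the acetylation enzymes, 78.7, and the remodellers, 77.7. No difference between these lists was tested.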

How the data were processed

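Values came from 1 deposited site list for each PARP1 IP. Per the file headers, the authors gave whole-number counts of tags (k) and of mutated tags (m) over each base, an FDR (akin to a q-value), a region and a gene identifier. The submitters' processing notes name bcl2fastq, TopHat2 and GRCh38. The site caller, versions and treatment of duplicates were not given in the sources used here. A transcript whose tags carry no mutation has no site.

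Identifiers were matched without version to GENCODE release 29, which also gave spans, exons and sequences. Sense sites were counted per 10 kb of span and ranked among protein-coding genes in 10 bins of span, with Python 3.11.15, pandas 2.3.3, numpy 2.4.6 and scipy 1.17.1, and figures with matplotlib 3.10.9. Exact intervals are Clopper-Pearson at 95% and cover counting error only, since amplified tags without molecular identifiers are not independent molecules. They also take adjacent bases of a single deletion as independent. With 2 IPs and no usable control there was no test between groups. The counting was checked on simulated lists.

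The genes and lists were chosen with earlier results of these data known. Full values are given for the 10 genes with the highest mean density and for those with more than 1 shared base. They are also given for genes with a shared base in an exon and genes with no sense site in an IP. Counts are given for all others. Of the related lists, the genes with the most shared bases and those with no site are named, and the values of 1 gene that this rule takes are left out. Alternatives used stricter thresholds, merged sites, other overlaps and spans, an IP left out and SMYD3 left out.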

Additional observations from a re-analysis of the deposited data

How the results depend on the processing

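As means of the IPs, 6.38% of the enzyme genes' sites were shared, 8.49% exonic, 38.8% deletions or insertions and 22.6% in the first of 4 equal parts of the span. With at least 3 mutated tags required, 19 enzyme genes (36.5%) had a sense site in both IPs, against 13.9% of all protein-coding genes. A shared base was then found in 3 enzyme genes, a count not set beside all genes. The median density was then 0.150 per 10 kb, against 0 over all protein-coding genes, and shared, exonic and deletion or insertion sites were 5.33%, 7.41% and 13.2%. Among sites below the most common FDR, mostly deletions and insertions, 7 enzyme genes had a shared base, again with no count over all genes. The median was 0.670, against 0.0267, and the shares were 3.58% shared, 12.8% exonic, 77.3% deletions or insertions and 19.5% in the first of 4 parts. By IP the deletions or insertions were then 78.3% and 76.4%, against 78.7% and 77.4% in other genes, the reverse of the order with all sites. The median was 1.59 per 100000 sense sites of protein-coding genes in a list and 1.48 with sites within 50 bases merged. It was 1.67 over spans without bases of another gene on the same strand. That setting left 51 genes, since KDM4A lies wholly inside such a gene. Merging gave 32.3% deletions or insertions, and thinning IP 2 to the length of IP 1 gave 5.62% shared. Without SMYD3 the shares were 5.62% shared, 11.3% exonic and 40.0% deletions or insertions. With either IP left out, the median lay between 1.66 and 1.77, the share in exons between 7.87% and 9.12%, deletions or insertions between 38.3% and 39.2% and the first of 4 parts between 21.0% and 24.2%. No paired analysis was possible because the inputs, which share replicate numbers with the IPs, are not analysed here, so the replicate block was not run. Depth limits every site, at a median of 2 tags, and the lists hold no measure of transcript level.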
